A study of Mus musculus with 2 samples.

Results

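Vimentin, the filament protein of the cytoplasm in cells of mesenchymal and many blood lineages, was set beside the proteins that build and anchor the nuclear lamina, 9 genes in all: Vim, Lmna, Lmnb1, Lmnb2, Lbr, Emd, Tmpo, Sun1 and Sun2. They were chosen by name, as every probe set whose only gene symbol in the platform annotation was one of these, and the group was put together because Vim was among the genes that were lowest after treatment. The fall of Vim is therefore given as a description and supports nothing further. This gave 24 probe sets among 34945 with a single symbol, and 9 of 18193 genes. RNA came from the mouse line G1E, made of GATA-1-null cells of the early erythroid lineage. Cells of both arrays carried ER-GATA-1(V205G), a hormone-activated fusion whose GATA-1 part is defective in binding its partner FOG-1. One array (n = 1) held cells before treatment, at 0 h, and one (n = 1) held cells given 1 µM estradiol for 24 h. The comparison asks which transcripts respond to a GATA-1 that binds FOG-1 poorly. Neither an array of untreated cells kept for 24 h nor one of G1E cells lacking the fusion was analysed here, so the activated mutant, estradiol itself and time in culture cannot be told apart. With 1 array a group there is no replicate check, and no p-value or error between cultures can be given for any value here.

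Vimentin belongs to the intermediate filament family, as do the lamins. Lamins A and C, both from Lmna, and the B-type lamins from Lmnb1 and Lmnb2 polymerise under the inner nuclear membrane, where the lamin B receptor (Lbr), emerin (Emd) and the LAP2 proteins (Tmpo) tie them to membrane and chromatin, and the SUN proteins (Sun1, Sun2) connect them through nesprins to the cytoskeleton. In mammalian red cell development vimentin is known to be lost before the nucleus is shed, and lamin A is generally sparse in blood progenitors compared with mesenchymal cells.

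The GATA factors bind short DNA words around GATA. The stretch before the start of the gene that fell and of the 2 scanned members holding such a word are therefore shown first. The sequences are from RefSeq's promoter table for GRCm38.p6, from which 8 of the 9 members were scanned, with 12 start sites. Lmnb1 was left out of the scan, so nothing is said of its promoter. Only the 250 bases before each start are printed. For Vim the window is chr2:13574061-13574310 on the plus strand, and capitals mark CCAAT on either strand and TATAAA.
Vim: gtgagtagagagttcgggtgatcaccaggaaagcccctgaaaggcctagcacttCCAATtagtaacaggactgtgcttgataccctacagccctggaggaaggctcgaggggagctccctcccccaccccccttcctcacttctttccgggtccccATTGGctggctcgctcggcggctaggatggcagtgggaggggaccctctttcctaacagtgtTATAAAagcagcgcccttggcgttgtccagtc
For Lbr it is chr1:181842402-181842651 and for Tmpo chr10:91171620-91171869, both on the minus strand, and capitals mark a match to AGATAA, or TGATAA, or AGATAG, or TGATAG on either strand.
Lbr: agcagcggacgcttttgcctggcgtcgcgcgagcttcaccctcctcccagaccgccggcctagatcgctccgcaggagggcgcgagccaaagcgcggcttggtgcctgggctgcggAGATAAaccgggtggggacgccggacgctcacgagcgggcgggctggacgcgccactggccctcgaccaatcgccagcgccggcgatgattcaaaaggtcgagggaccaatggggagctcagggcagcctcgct
Tmpo: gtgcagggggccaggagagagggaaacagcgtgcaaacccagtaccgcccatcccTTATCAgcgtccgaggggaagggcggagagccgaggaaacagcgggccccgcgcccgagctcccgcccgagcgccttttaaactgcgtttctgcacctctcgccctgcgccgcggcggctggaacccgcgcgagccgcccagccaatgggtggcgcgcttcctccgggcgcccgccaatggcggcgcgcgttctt
The Vim window held none of the 4 GATA words, which 26.5% of all 32851 promoter windows of this length contain. It did hold TGATAC, which has the letters GATA but is not among the words counted. It held TATAAA on the gene's strand, beginning 32 bases before the start, a word found on either strand in 12.4% of windows, and CCAAT at 196 bases and, on the opposite strand, at 94 bases before it, where 33.8% of windows hold at least one. Of the other member windows only a second start of Sun1 held TATAAA, on the opposite strand and 214 bases before the start. Lbr held AGATAA 134 bases before its start, and Tmpo held TGATAA on the opposite strand 195 bases before. The GC box GGGCGG, present on either strand in 32.7% of windows, did not occur in that of Vim and occurred 4 times each in that of Sun2 and that of Tmpo. The AP-1 words TGACTCA and TGAGTCA, present in 4.46%, occurred in none of the 12. These matches describe letters in a short window only.

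Signals are linear intensities of a probe set. They can be compared between arrays for the same probe set and not between genes, because probes differ in how brightly they bind. A probe set was called measured where both arrays reached a floor at the 50th percentile of all signals, 95.2, and 18 of the 24 member probe sets were. A further 2 reached it on 1 array and 4 on neither. A gene takes the value of its brightest probe set. The only error available is how far probe sets that read 1 gene differ in log2 ratio, a pooled SD of 0.25 (12514 probe sets, 4586 genes). For genes in the highest and middle tertile by signal it was 0.20 and 0.25, so 2 SD are 0.40 and 0.50 on the log2 scale. It covers probe noise and transcript forms, not cultures.

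**Figure D1:**
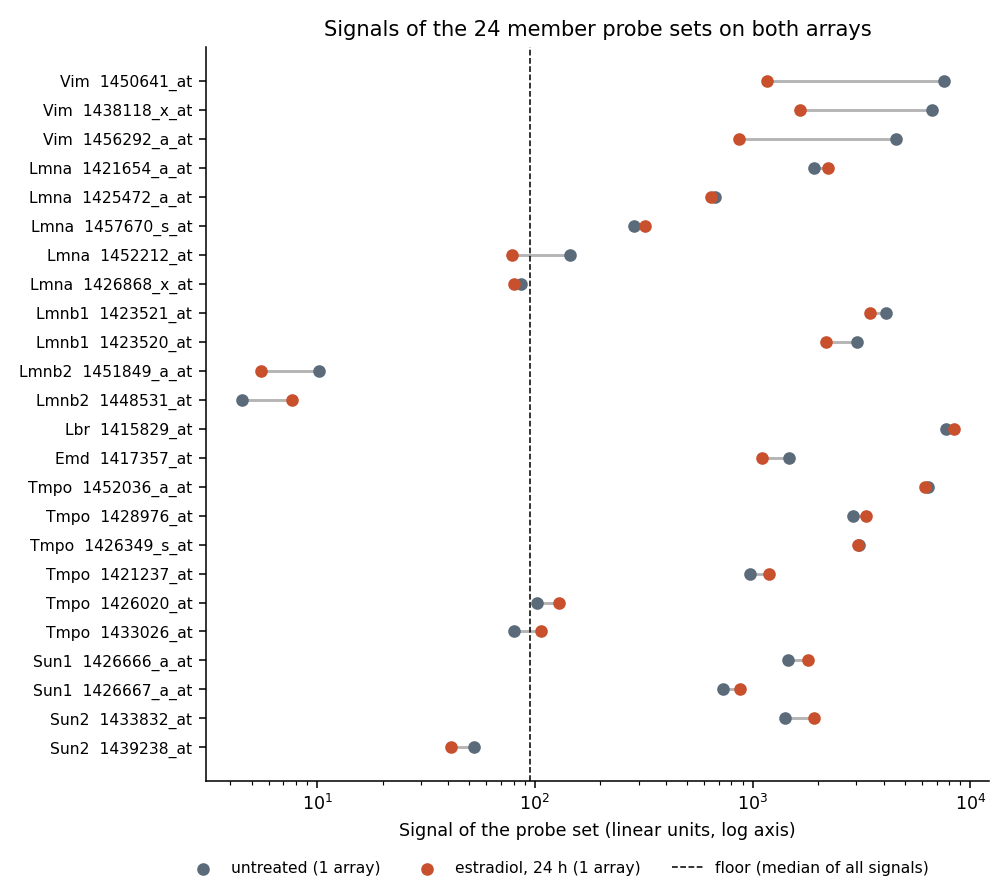
Signal of each of the 24 member probe sets (log axis, linear signal units) before treatment (grey) and after estradiol (orange), 1 array each, with the floor of 95.2 as a dashed line. The 3 Vim probe sets move left by the widest margin above the floor, and both Lmnb2 probe sets lie far below it.

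Vim was far lower after estradiol, while the 7 other measured members lay within 1.5-fold of their untreated signal. Of the 8 measured members, 1 was at least 2-fold lower (1.1% of all 10240 measured genes were) and 0 were at least 2-fold higher (2.04% of all genes were). The lower count is the one the group was chosen for, so nothing is read from it. The log2 ratios of the 7 others, of estradiol over untreated, ran from -0.41 to 0.44 with a median of 0.12, 4 above 0 and 3 below. For comparison the median over all measured genes was 0.00, and 88.0% of them lay within 1.5-fold.

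**Figure D2:**
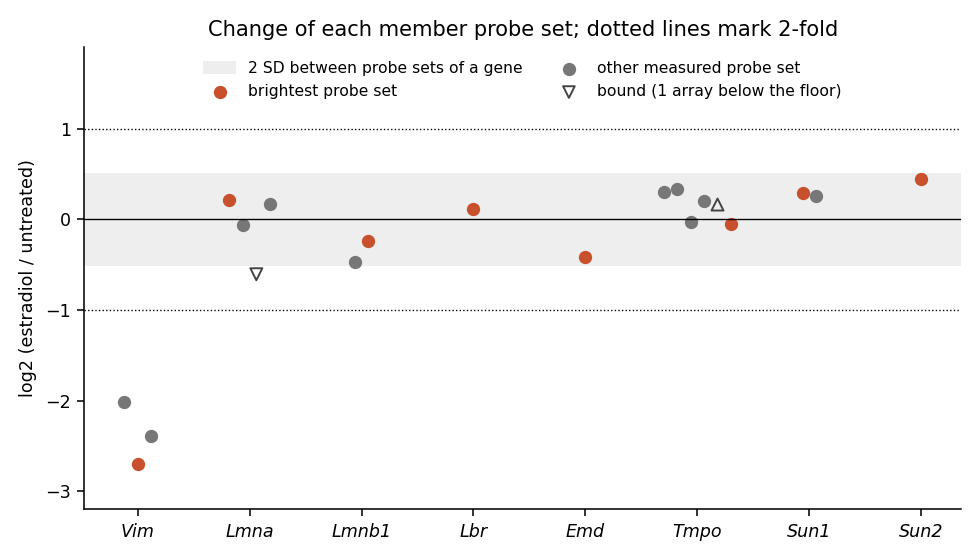
The log2 ratio of estradiol over untreated for each member probe set, with the brightest probe set of a gene in orange and bounds as open triangles. The shaded band is 2 SD (0.50) between probe sets of a gene, pooled over all signals. The Vim probe sets lie from -2.70 to -2.01, and those measured for other members inside the band. For bright genes alone 2 SD are 0.40, which Sun2 (0.44) and 1 Lmnb1 probe set (-0.47) pass.

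The 3 Vim probe sets gave the same picture. The brightest, 1450641_at, read 7603 untreated and 1168 after estradiol, a 6.51-fold lower signal and a log2 ratio of -2.70. Probe set 1456292_a_at read 4546 and 864 (-2.40), and 1438118_x_at read 6652 and 1650 (-2.01). These 2 are annotated to the same source sequence, so they may not be independent readings. The suffix _x marks a probe set whose probes may also bind other transcripts, and the 2 probe sets without it showed the larger falls. The extreme probe sets differed by 0.69, so the size of the fall varied with the probe set, while each put it past 4-fold. The 2 SD (0.40 for bright genes) refer to 1 probe set about its gene's mean and set no limit for such a difference. Among all measured genes it ranked 2 from the lowest ratio, after Gzmb, the granzyme B gene, and before Cpa3. After estradiol its probe sets remained between 864 and 1650, above the floor.

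Lamin genes differed little. For Lmna, which encodes lamins A and C, the brightest probe set read 1913 untreated and 2212 after estradiol (log2 ratio 0.21). Its other measured probe sets read 672 and 646 (-0.06) and 287 and 322 (0.17), so the direction was not shared. Probe set 1452212_at read 145 untreated and 78.8 with estradiol, which lies under the floor, so that it was at least 1.52-fold lower, and this stands against the brighter ones, and 1426868_x_at was below the floor on both arrays at 86.6 and 80.5. All 3 measured ratios lie within 2 SD (0.50) for genes of this signal.

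Lmnb1, the gene of lamin B1, was lower on both of its probe sets by a small margin. The brighter read 4107 and 3476 (-0.24) and the other 3017 and 2177 (-0.47), of which only the second lies beyond 2 SD (0.40). Lmnb2, the gene of lamin B2, was below the floor on both arrays, with 10.2 and 5.50 on one probe set and 4.50 and 7.70 on the other. No ratio was formed for it. Low signal on a few probes does not show that the transcript was missing.

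Neither Lbr nor Emd, genes of inner membrane proteins that hold the lamina, differed beyond the spread between probe sets. Lbr, whose product binds B-type lamins and heterochromatin and also carries a sterol reductase domain, had 1 probe set reading 7717 and 8375 (log2 ratio 0.12). Emd, the emerin gene, read 1478 and 1109, a signal 1.33-fold lower (-0.41). That is inside 2 SD (0.50) for genes of its signal, and 9.86% of measured genes had a lower ratio.

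Tmpo, whose alternatively spliced transcripts encode the LAP2 proteins, had 6 probe sets, of which 5 were measured. The brightest read 6395 and 6170 (-0.05), the next 3088 and 3040 (-0.02) and 2889 and 3328 (0.20). A dimmer one read 971 and 1195 (0.30), and one close to the floor read 103 and 130 (0.33). The sixth went from 80.2, below the floor, to 107. The 5 measured ratios thus ran from -0.05 to 0.33, with 2 just below 0 and 3 above it. Which transcript each probe set reads was not settled here.

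Both SUN genes read higher. Sun1 had signals of 1460 and 1789 on one probe set (0.29) and 734 and 877 on the other (0.26), both short of 2 SD (0.50). Sun2 read 1407 and 1911, a 1.36-fold higher signal (0.44). That lies just beyond 2 SD for bright genes (0.40) and inside the 0.50 applied to Sun1. The tertile of a gene follows the mean of its measured probe sets, and Sun2 had only 1. Of all measured genes 11.3% had a higher ratio than Sun2. Its second probe set was below the floor at 52.5 and 41.3.

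Set against each member, the log2 ratio of Vim minus that of the other gene ran from -3.15 (against Sun2) to -2.29 (against Emd). Against Lmna, a lamin gene of the same filament family, it was -2.91, so the ratios of these genes differed 7.53-fold. Vim was picked because it fell, so a wide gap to genes that changed little follows from that choice.

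**Figure D3:**
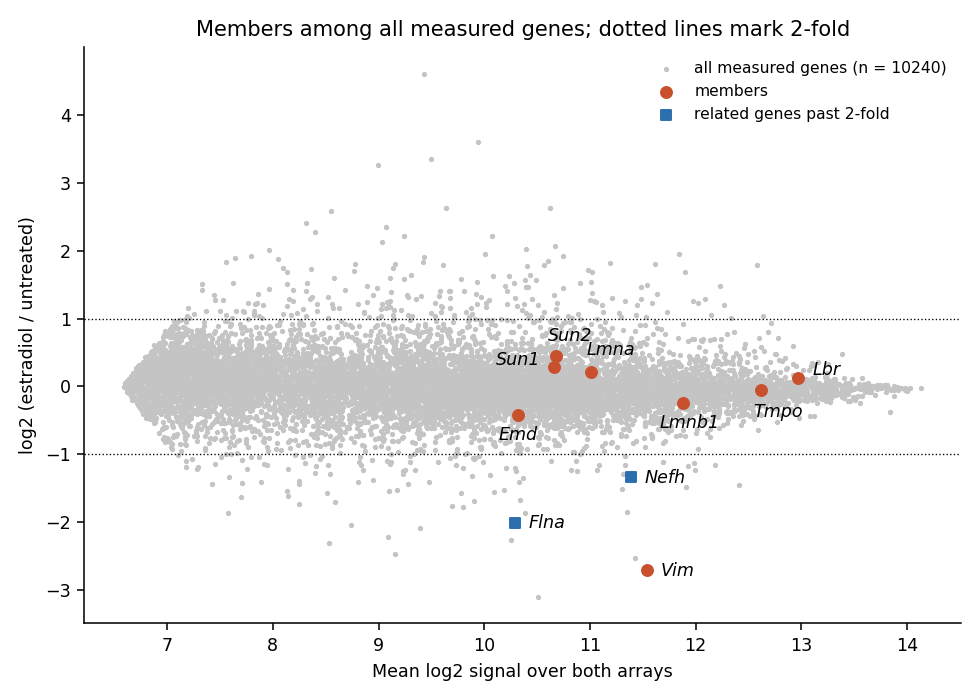
Log2 ratio of estradiol over untreated against mean log2 signal for the 10240 measured genes (grey), the 8 measured members (orange) and Nefh and Flna (blue squares). Vim lies at -2.70 near the lower edge of the cloud, and the 7 other members lie inside it between -0.41 and 0.44.

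Genes that work with vimentin and the lamina were taken from 8 lists, 86 genes in all, of which 80 had a probe set of their own and 58 were measured. Of these 58, 2 were at least 2-fold lower, 3.45% against 1.1% of all measured genes, and 0 were at least 2-fold higher, against 2.04%. The share past 2-fold in either direction was 3.45% against 3.14%, and the median log2 ratio was -0.15 against 0.00.

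Among the 18 other genes of cytoplasmic and lens intermediate filaments, 8 were measured, 3 had a bound and 7 were below the floor. Nefh, the heavy neurofilament subunit gene, read 4269 and 1692 on its single probe set, a 2.52-fold lower signal, and was the 1 measured member past 2-fold. Des, the desmin gene, went from 227 to 36.5 on its brightest probe set, a bound of at least 2.38-fold lower, but its other probe set read 127 and 125 (-0.03), so the probe sets of Des disagree. Such a bound was found in 2.86% of the genes that reached the floor on 1 array. Sync (-0.47) and Bfsp2 (-0.40) came next, and Nes (0.01) and Gfap (0.15) were highest, all dim. The list median was -0.21, with 6 genes below 0 and 2 above.

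Of the proteins that crosslink filaments or link them to other structures, 5 genes were measured. Flna, the gene of the actin crosslinker filamin A, read 2515 and 626 on 1 probe set, 4.02-fold lower, and was the 1 past 2-fold. Plec, the gene of the vimentin linker plectin, read 906 and 655 (-0.47) with -0.12 on its other measured probe set. Macf1 was at 0.08 (-0.33 to 0.09 over its 3 probe sets), Ppl at -0.10 and Flnc, close to the floor, at 0.57. The list median was -0.10.

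The nuclear envelope list held LEM-domain, nesprin, SUN and torsin genes and other genes of the envelope, among them Nrm, Tmem43 and Tmem201. None of its 16 measured genes passed 2-fold, and the median was -0.07. Banf1, whose product bridges LEM proteins and DNA, read 8095 and 7497 (-0.11), and Lemd3, an inner membrane protein gene, 1803 and 1770 (-0.03). The nesprin genes Syne1 (319 and 407, 0.35), Syne3 (401 and 507, 0.34) and Syne2 (110 and 136, 0.31), partners of the SUN proteins, were the 3 highest, all dim. Syne1 rested on 1 measured probe set of 3, and Syne2 on 1 of 4 that lay close to the floor. Nrm, the nurim gene, was lowest at -0.61 (1112 and 727), then Tmem43 at -0.59 (451 and 298) and Tmem201 at -0.19. The 3 probe sets of Tmem201 ran from -0.19 to 0.09.

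Genes that farnesylate and trim the lamins also stayed within 2-fold, 0 of 5. Zmpste24, the protease that matures lamin A, read 1509 and 1516 (0.01). Fntb, a farnesyltransferase subunit gene, was highest at 0.53, and Fnta, the other subunit gene, lowest at -0.13. Of the 7 measured heterochromatin partners none passed 2-fold, with Ehmt2, a histone methyltransferase gene, lowest at -0.83 (-0.36 on its other probe set). The heterochromatin protein 1 genes, whose products bind the lamin B receptor, were Cbx5 at -0.44, Cbx1 at -0.15 and Cbx3, a dim probe set, at 0.51. The 4 measured probe sets of Cbx1 ran from -0.25 to 0.17.

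Sterol synthesis genes were listed because the lamin B receptor shares its reductase activity with Tm7sf2. Tm7sf2 read 705 and 385 (-0.87), on the other side of 0 from Lbr (0.12). Dhcr7 was at -0.89, Cyp51 at -0.54, Msmo1 at -0.21 and Nsdhl at -0.17. Below 0 were 5 of 5, and 5111 of all 10240 measured genes, and 0 of the 5 were past 2-fold. The list median was -0.54. None of 8 measured genes of kinases acting on vimentin or lamins passed 2-fold (median -0.35). Aurkb was lowest at -0.61, then Pak2 at -0.50 and Cdk1 at -0.42, while Prkce (0.36) and Plk1 (0.21) were highest.

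Of 10 genes linked to the mesenchymal state, in which vimentin is a standard marker, 4 were measured and 0 passed 2-fold. Zeb2, a zinc-finger repressor gene of that program and of blood cells, was highest, reading 460 and 829 (0.85), with 0.38 to 0.93 over its 5 probe sets. Zeb1 was at 0.16, Fn1 at 0.10 and Sp1 at -0.25, where the 3 probe sets of Sp1 ran from -0.25 to 0.23. Snai1 reached the floor on 1 array, and Snai2, Twist1, Twist2, Cdh1 and Cdh2 on neither.

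**Figure D4:**
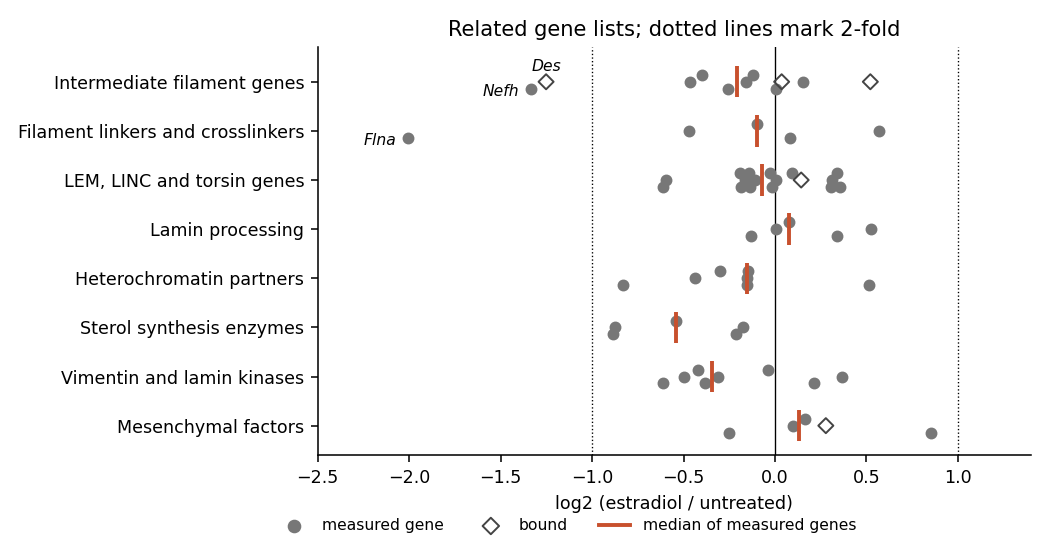
Log2 ratio of estradiol over untreated for the measured genes of 8 related lists (grey points), bounds (open diamonds) and the list medians (orange bars). Nefh, Des and Flna lie past the 2-fold line, Des as a bound, and the medians run from -0.54 to 0.13.

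The genes most like Vim in their signals on these 2 arrays, by Euclidean distance on the log2 scale between brightest probe sets, were Cpa3 (0.20), Fut8 (0.66), Lgals9 (0.91), Nefh (0.99) and Lyl1 (1.01). Their signals were 5.77-fold, 3.62-fold, 2.84-fold, 2.52-fold and 2.79-fold lower after estradiol. Genes picked for signals near those of Vim have to be lower after estradiol, so these folds follow from the choice. The distance also rests on probe brightness, which is not comparable between genes as an amount of transcript.

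Markers of other cells were read beside the fall of Vim, since in a bulk sample fewer cells of a type and less RNA per cell cannot be told apart. Of the erythroid progenitor markers 7 of 7 with a probe set of their own were measured, 5 below 0 and 2 above in log2 ratio. Lyl1 read 6429 and 2305 (-1.48) and was the 1 past 2-fold. Tal1 was at -0.56, Gata2 at -0.45, Kit at -0.16, Epor at -0.13, Tfrc at 0.13 and Klf1 at 0.62. Of 10 fibroblast and stromal markers, whose cells are rich in vimentin and lamin A, 7 were below the floor on both arrays, among them Col1a1 (44.3 and 30.6), Col3a1 (52.1 and 42.0) and Dcn (34.9 and 14.6). The 3 measured were dim: Col1a2 (191 and 280, 0.55), Col5a1 (213 and 254, 0.25) and Pdgfra (165 and 138, -0.26). The summed signal of the list was 867 untreated and 903 after estradiol. Of 8 macrophage markers 5 were below the floor, including Lyz2, Itgam and C1qa, with sums of 816 and 778. The measured ones were Csf1r (321 and 373, 0.22), Adgre1 (161 and 192, 0.25) and Cd68 (159 and 122, -0.38). Of 6 endothelial markers 5 were below the floor, with sums of 411 and 446, and Kdr was measured (208 and 249, 0.26). None of these 3 lists had a member past 2-fold, and none of their markers read 0. In the mast cell list 3 of 6 markers were measured. At least 2-fold lower were 2 of these, against 1.1% of all measured genes. Cpa3 was 5.77-fold lower (6616 and 1146) and Ms4a2, the IgE receptor beta chain gene, 2.65-fold lower (2093 and 791). Cpa3 ranked next after Vim among the lowest ratios of all measured genes and was also the gene nearest to Vim in signals. Fcer1a read 144 and 47.3, a bound of at least 1.52-fold lower. Tpsb2 went the other way, from 47.1, below the floor, to 100.4, close to it, a bound of at least 1.05-fold higher. Cma1 read 184 and 210, and Mcpt4 was below the floor at 7.60 and 8.80. The summed signal of this list was 9092 and 2303, nearly all of it from Cpa3 and Ms4a2, since such a sum weighs bright probe sets most. The part of mast-like cells in the fall of Vim was not tested.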

How the data were processed

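Total RNA of 2 samples was labelled with biotin and read on Affymetrix mouse arrays, per the labels. The deposited values are linear signal intensities for 45101 probe sets per array, made with GCOS per the submitters' processing notes (version and settings not given in the sources used here). Their 2% trimmed mean was 500.0 on both arrays.

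Control probe sets were left out, and both arrays were rescaled to 1 trimmed mean over the other 45037 (factors 0.999941 and 1.00006). The floor, the 50th percentile over both arrays, was a signal of 95.2; 49.2% and 50.9% of probe sets reached it. Genes were named through GEO's platform annotation (34945 probe sets with 1 symbol, 932 with several, 9160 with none); 0 probe sets joined a member with another gene. A value below the floor on 1 array was raised to it, giving a bound. A gene was called at 2-fold. The number of arrays limits the precision. Named genes are all members, the list genes past 2-fold, up to 3 highest and 3 lowest per list, a preset few, and the 5 most like Vim. Members, lists and rules were chosen with earlier results of these data known. Alternatives covered scaling, floor, probe set and threshold. The steps were tested on simulated data. The work used matplotlib 3.10.9, statsmodels 0.14.6, pandas 2.3.3 and numpy 2.4.6 under Python 3.11.15.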

Additional observations from a re-analysis of the deposited data

How the results depend on the processing

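Vim stayed at least 2-fold lower in all 9 alternatives of scaling, floor and probe set, with log2 ratios from -2.82 to -2.01. It was -2.40 with the median over its probe sets and -2.01 with the probe set of smallest change, both away from -2.70 by more than the SD between probe sets. No other measured member passed 2-fold in any of the 9. The sign of Lmna turned with the probe set of smallest change (-0.06) and that of Tmpo with the median over probe sets (0.20). Scaling to a common median lowered the median of all genes by 0.11 on the log2 scale, and Lbr then read 0.01. The count of related genes at least 2-fold lower, 2, became 6 with no floor and 16 added to each signal; at a threshold of 1.5-fold 8 were lower and 1 higher, and at 3-fold 1 was lower. The median of the intermediate filament list became -1.34 with the floor at the 70th percentile, which left Nefh as its only measured gene, and 0.01 with no floor. That of lamin processing genes turned to -0.04 with a common median. Over all measured genes 113 were lower and 209 higher, against 512 and 679 with no floor and 497 and 728 at a threshold of 1.5-fold. No replicate could be left out, and no paired analysis was possible because each group had 1 array.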
